A study of Rattus norvegicus with 2 samples.

Results

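The genes described here encode the ubiquitin-conjugating enzymes named Ube2 and the ubiquitin-specific proteases named Usp. Members were taken by gene symbol alone, as every Ube2 or Usp symbol in the deposited table except Usp18, an interferon-induced protease of the ubiquitin-like protein ISG15. The rule found 73 of 16846 gene symbols, 29 of them Ube2 and 44 Usp, and it used no measured value. One of the 73, Usp6nl, encodes a Rab GTPase-activating protein and shares only the first part of its name with the proteases.

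Ubiquitin is attached to proteins in steps: an E1 enzyme activates it, an E2 enzyme carries it, and an E3 ligase helps the E2 pass it to a substrate. The E2 often sets which kind of chain is built, and some kinds send the substrate to the proteasome while others change its partners or its place in the cell. Usp proteases are the largest family of deubiquitinases, which trim or remove these chains. In heart muscle this system turns over sarcomere proteins and signalling proteins, and in dividing cells it times the passage through mitosis.

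The data are 2 libraries of strand-specific poly(A) RNA-seq, 1 per group, from rat ventricular cells taken at birth, freed with trypsin, left for 2 h on uncoated plastic so that attaching cells were lost, and cultured as cardiomyocytes. The anti-miR culture received adeno-associated virus of serotype 2/9 that encodes short hairpin inhibitors of miR-99/100 and of let-7 for 7 days. The control culture received an empty virus according to the treatment label and a mock transduction according to the protocol. The comparison asks how loss of these miRNA families alters transcripts, and neither the number of pups nor any pooling is stated in the labels. The anti-miR library held 14815846 reads on genes and the control library 16031780.

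With 1 library per group there is no replicate check and no test, so each difference below describes these libraries. A level in RPM is a gene's share of the library, scaled to 1000000 assigned reads; RPKM divides it by each 1000 bases of transcript and is used wherever genes are compared with each other. Ratios are anti-miR over control, with exact Clopper-Pearson 95% intervals that cover counting error only. Counts of members past a ratio are given for members with a mean of at least 1 RPM, and positions of genes are on build rn4. The labels give a purity above 90%, and the markers went against it: 11 cardiomyocyte markers came to 286 RPM in the anti-miR and 249.6 RPM in the control library. Most of it was Tnnt2, with 161 RPM in the anti-miR and 147 RPM in the control, and Actc1, with 88.8 and 77.0 RPM. Myh6, Myl3, Ryr2 and Tnni3 had 23, 19, 20 and 5 reads in the anti-miR and 0 in the control, with means under 1 RPM. Of the 7 markers above 1 RPM, 5 had a log2 ratio above 0 and 2, Myl2 and Pln, below it. Myl2 had 5 reads in the anti-miR and 30 in the control. By comparison, 10 fibroblast markers took 13.0% of anti-miR and 12.95% of control reads, and 10 macrophage and leukocyte markers 0.761% of anti-miR and 0.683% of control reads. Lyz2 alone set the direction of the macrophage sum, as the other 9 came to 3674 RPM in the anti-miR and 3895 RPM in the control library. Smooth muscle markers summed to 986 RPM in the anti-miR and 977 RPM in the control library, and erythroid markers to 0 in the anti-miR and 2.62 RPM in the control. Endothelial markers summed to 56.2 RPM in the anti-miR and 31.1 RPM in the control, mostly Flt1, and went both ways: Pecam1 had 50 reads in the anti-miR and 0 in the control, and Vwf 3 reads in the anti-miR and 47 in the control. The part of these cells in the results was not tested, and fewer cells of a type cannot be told apart from less RNA per cell.

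The inhibited miRNAs are shown for their seeds, bases 2 to 8, in capitals; the sequences are RefSeq's, from build GRCr8. The labels name let-7a and let-7c among the targets of the hairpins, and miR-99a also belongs to the other family.
rno-let-7a-5p: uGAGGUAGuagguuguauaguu
rno-let-7c-5p: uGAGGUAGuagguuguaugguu
rno-miR-99b-5p: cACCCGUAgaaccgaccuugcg
rno-miR-100-5p: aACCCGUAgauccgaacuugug
The 4 sequences carry 2 seeds, GAGGUAG in let-7 and ACCCGUA in miR-99/100. Poly(A) reads do not measure these mature miRNAs, and target sites in the members' transcripts were not searched here.

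As a whole the members stood close to 1:1 between the libraries. Together they took 4575 RPM in the anti-miR and 4634 RPM in the control library, a ratio of 0.987 (0.977 to 0.998). Of the 73 members, 65 had a mean of at least 1 RPM. Of these 65, 3 (4.62%) had a ratio of 1.5 or more, against 11.0% of all 10365 genes above 1 RPM. At least 1.5-fold lower were 2 (3.08%), against 8.67% of all genes. The 3 higher members, Ube2c, Ube2t and Ube2q2l, all carry Ube2 names, and Usp49 was among the lower ones. With 1 RPM added to each level in place of 0.1, 0 members passed 1.5-fold downward. At a limit of 2-fold, 2 members were higher and 0 lower, beside 5.00% and 3.78% of all genes. Requiring in addition an adjusted exact binomial p under 0.05 between the libraries left the same 3 and 2 members, with a background of 10.3% upward and 829 of 10365 genes downward.

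The median log2 ratio was −0.02 over 27 Ube2 members and 0.01 over 38 Usp members, beside 0.03 over all genes above 1 RPM; the Usp median was −0.01 under TMM scaling. The Ube2 members summed to 1849 RPM in the anti-miR and 1884 RPM in the control library, a ratio of 0.981 (0.966 to 0.998). Usp members summed to 2726 RPM in the anti-miR and 2750 RPM in the control library, a ratio of 0.991 (0.978 to 1.005). Intervals of single members lay above 1 for 18 of the 65, with a background of 33.6% over all genes, and below 1 for 19, with a background of 28.1%. The members' shares were 27.7% and 29.2%, near the background in both directions.

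Past 1.5-fold, the share of genes depended on level. Among all genes of 1 to 10 RPM, 28.9% were at least 1.5-fold higher and 25.2% at least 1.5-fold lower, and of the 8 members in this range 2 were higher and 2 lower. From 10 to 50 RPM, 1 of 24 members was higher and 0 were lower, beside 9.33% and 5.82% of all genes. At 50 RPM or more, 0 of 33 members passed 1.5-fold in either direction, beside 0.753% and 0.948% of all genes. Over the whole range from 10 RPM upward, 1 of 57 members was higher and 0 lower, beside 5.46% and 3.62%. So 4 of the 5 members past 1.5-fold lie in the range where more than 25% of all genes were past it in each direction.

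**Figure D1:**
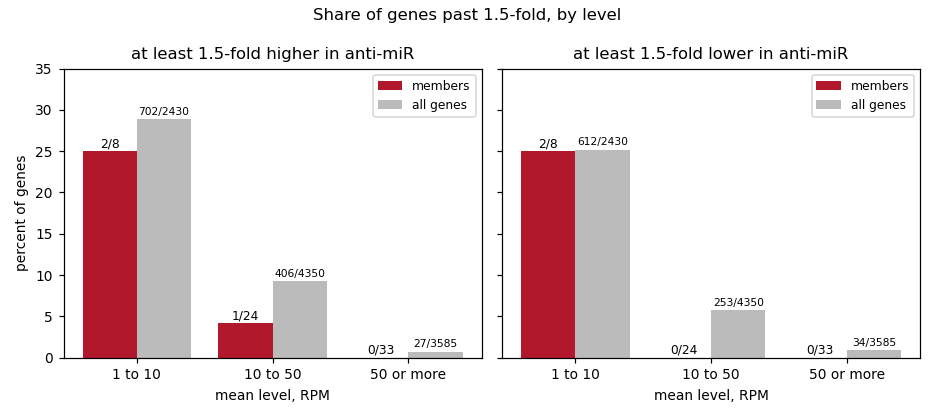
Percent of genes at least 1.5-fold higher (left panel) or lower (right panel) in the anti-miR library, by mean level in RPM, for members (red) and all genes (grey); the numbers over bars are genes past 1.5-fold of genes in the range. At 50 RPM or more, 0 of 33 members passed in either direction.

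**Figure D2:**
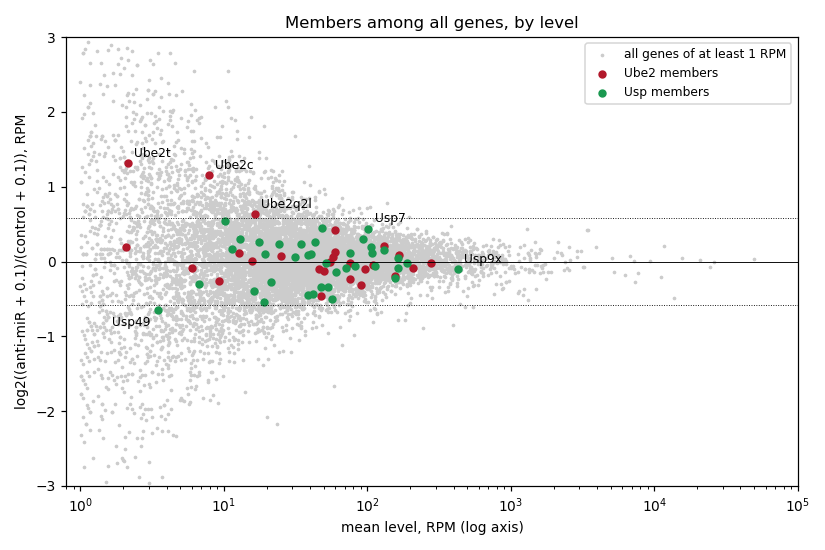
Log2 ratio of anti-miR over control RPM, each with 0.1 added, against mean level on a log axis, for all genes of at least 1 RPM (grey), Ube2 members (red) and Usp members (green); dotted lines mark 1.5-fold, and 110 genes lie outside the vertical axis. Ube2t, Ube2c and Ube2q2l lie above the upper line, and Usp49 below the lower one; 1 member is not drawn.

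The 2 E2 enzymes of the anaphase-promoting complex, the ligase that ends mitosis, were both higher in the anti-miR library. Over all genes 53.3% had a log2 ratio above 0 and 33.6% an interval above 1, so this count of 2 is a description. Ube2c (chromosome 3, 155800357 to 155802757), which starts the ubiquitin chains, had 163 reads in the anti-miR and 78 in the control library, or 11.0 RPM in anti-miR and 4.87 RPM in control cells. Its ratio was 2.26 (1.72 to 3.0) and its log2 ratio 1.16. Among the 500 genes nearest to it in level the central 95% of log2 ratios ran from −1.32 to 1.30, so Ube2c lay inside the range of genes of like level. Ube2s (chromosome 1, 67745354 to 67749414), which extends those chains, had 67.8 RPM in the anti-miR and 50.8 RPM in the control library. Its ratio of 1.33 (1.22 to 1.47) was short of 1.5-fold, and its log2 ratio of 0.42 lay inside a like-level range of −0.53 to 0.52.

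Most listed mitotic transcripts were also higher in the anti-miR library, beside the 11.0% of all genes past 1.5-fold upward and 8.67% downward. Of 20 listed mitotic genes 17 were in the table and 16 above 1 RPM, 11 of them past 1.5-fold upward and 1, Bub1, past it downward, and the list's sum was 410 RPM in the anti-miR and 282 RPM in the control library. Its median log2 ratio was 0.64. Pttg1, the securin that the anaphase-promoting complex marks for degradation, had 17.8 RPM in anti-miR and 7.67 RPM in control cells, a ratio of 2.32 (1.87 to 2.90). Ccnb1, cyclin B, another substrate of that complex, had 14.7 RPM in anti-miR and 6.67 RPM in control cells, a ratio of 2.21 (1.74 to 2.81). Bub1, a kinase of the spindle checkpoint, had 14.9 RPM in anti-miR and 22.6 RPM in control cells, a ratio of 0.661 (0.556 to 0.783). Cdc20, an activator of the anaphase-promoting complex, stood at 16.3 RPM in anti-miR and 12.5 RPM in control cells with a ratio of 1.31 (1.08 to 1.59). The part of mitotic cells in the values of Ube2c and Ube2s was not tested.

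Of the 3 E2 enzymes of DNA damage tolerance and cross-link repair, 1 was higher, 1 lower and 1 close to equal. Ube2t (chromosome 13, 47924340 to 47934842), the E2 of the Fanconi anaemia pathway, had 46 reads in the anti-miR and 19 in the control library, or 3.10 RPM in anti-miR and 1.19 RPM in control cells. Its ratio of 2.62 (1.51 to 4.74) was the highest of the 65 members, and its log2 ratio of 1.32 lay inside a like-level range of −2.82 to 5.25. Ube2a and Ube2b are the mammalian forms of yeast Rad6, which ubiquitinates the replication clamp and a histone, and they differed in their ratios. Ube2a (chromosome X, 7981685 to 7992372) had 39.96 RPM in the anti-miR and 55.1 RPM in the control library, a ratio of 0.726 (0.653 to 0.806), whereas Ube2b had 108 RPM in anti-miR and 112 RPM in control cells, a ratio of 0.966 (0.903 to 1.03). The intervals of the pair, for counting error only, did not overlap, and both log2 ratios lay inside the range of genes of like level. Reads that match both paralogs could be split between them, and the rule by which the authors counted them is not stated in the labels or the table.

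The promoters of Ube2t and Ube2s are shown because genes of the mitotic programme often carry CCAAT boxes and the cell cycle homology region; the promoter of Ube2c was not analysed here. The 250 bases before the annotated start are from RefSeq, build GRCr8, on the plus strand, at chr13:48954916-48955165 for Ube2t and chr1:78057409-78057658 for Ube2s. Capitals mark CCAAT, and TTTGAA or TTCGAA for the homology region, each searched on both strands; no matches overlap in these 2 promoters.
Ube2t: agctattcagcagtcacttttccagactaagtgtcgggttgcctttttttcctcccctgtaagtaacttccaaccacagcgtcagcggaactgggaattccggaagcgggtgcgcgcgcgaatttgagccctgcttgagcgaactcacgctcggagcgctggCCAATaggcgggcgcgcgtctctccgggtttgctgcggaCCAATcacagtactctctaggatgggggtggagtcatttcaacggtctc
Ube2s: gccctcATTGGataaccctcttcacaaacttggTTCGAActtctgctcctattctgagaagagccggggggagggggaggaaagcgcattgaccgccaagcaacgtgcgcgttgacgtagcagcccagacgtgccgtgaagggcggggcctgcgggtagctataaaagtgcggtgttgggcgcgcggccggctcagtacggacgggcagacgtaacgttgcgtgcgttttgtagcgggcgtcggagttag
Ube2t holds CCAAT 2 times, with first bases 88 and 49 bases before the start, and neither form of the homology region. Ube2s holds CCAAT 1 time, on the other strand, 244 bases before the start, and TTCGAA 217 bases before it. CCAAT stands in 17 of the 61 member promoters matched, 27.9%, and in 34.3% of all 27457 promoters of this length. The homology region letters stand in 8 of 61, 13.1%, and in 17.3% of all promoters. A match is a description of letters only, and both shares among members are below those of all promoters.

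The E2s that work with many ligases included the most abundant members per length. Of these E2s 0 of 6 passed 1.5-fold, beside 11.0% of all genes above 1 RPM upward and 8.67% downward. Their mean levels ran from 5.99 to 207.6 RPM. At 50 RPM or more only 0.753% of all genes were past 1.5-fold upward and 0.948% downward. Ube2d3 (chromosome 2, 232943214 to 232971022) was highest, at 132 RPKM in the anti-miR and 140 RPKM in the control library, with a ratio of 0.943 (0.897 to 0.990). Ube2d2, a close paralog, followed at 83.7 RPKM in anti-miR and 76.8 RPKM in control cells, a ratio of 1.09 (0.994 to 1.20). Ube2d1 had 10.2 RPKM in anti-miR and 9.37 RPKM in control cells, far below Ube2d3 in both libraries. Ube2d4 had 3.95 RPKM in anti-miR and 4.20 RPKM in control cells. Its transcript nearly fills its genomic span, which leaves 3 bases over, and its accession is named Ube2d2b in the newer RefSeq table, so its reads cannot be told from those of Ube2d2 where the copies are alike.

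Both related Ube2e enzymes lay inside the range of genes of like level, and their intervals overlapped. Ube2e3 had 81.1 RPM in the anti-miR and 101 RPM in the control library, a ratio of 0.801 (0.743 to 0.863), while Ube2e2 had 15.9 RPM in anti-miR and 15.8 RPM in control cells, a ratio of 1.005 (0.838 to 1.21). Of the 6 members Ube2d1 to Ube2d4, Ube2e2 and Ube2e3, 0 passed 1.5-fold, and they summed to 379.7 RPM in the anti-miR and 406 RPM in the control library, a ratio of 0.935 (0.902 to 0.969).

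Ube2n and its partners lay below the median level per length of genes above 1 RPM. How reads that match several places were counted is not stated, and its part in these low levels was not tested. Ube2n, which joins ubiquitin into chains used in NF-kB signalling and DNA repair, had 33 reads in the anti-miR and 31 in the control library, or 1.503 RPKM in anti-miR and 1.305 RPKM in control cells. Its partner Ube2v2, which lacks the catalytic cysteine, had 7.84 RPKM in anti-miR and 7.48 RPKM in control cells, where all genes had medians of 13.4 RPKM in anti-miR and 13.2 RPKM in control cells. The other partner, Ube2v1, had 8 reads in the anti-miR library and 0 in the control, where a count of 0 allows up to 3 reads or 0.187 RPM, so it was at least 2.89-fold higher on a floor of 3 reads per library. Counting error of the 8 reads is not in that bound; the exact interval of the ratio started at 1.85. With a mean under 1 RPM it was not counted among the 65, as at such levels genes differed widely in both directions. Ratios of Ube2n (1.15, 0.684 to 1.95) and Ube2v2 (1.05, 0.908 to 1.21) had intervals that include 1.

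Of 5 E2s of the endoplasmic reticulum and of cullin ligases above 1 RPM, 0 passed 1.5-fold. All 5 had a mean of at least 50 RPM, where only 0.753% of all genes were past it upward and 0.948% downward. Ube2g2, Ube2j1 and Ube2j2, which act on misfolded proteins at the endoplasmic reticulum, had 54.8, 59.1 and 75.8 RPM in the anti-miR and 54.9, 56.5 and 76.8 RPM in the control library. Their ratios lay between 0.987 and 1.05, and all 3 intervals include 1. Ube2g1, which extends chains on cullin ligase substrates, had 48.1 RPM in anti-miR and 52.5 RPM in control cells, a ratio of 0.916 (0.828 to 1.01). Ube2k was the lowest of these, with 69.3 RPM in anti-miR and 81.5 RPM in control cells and a ratio of 0.849 (0.782 to 0.923). Ube2ql1, an E2-like gene, had 10 reads in the anti-miR and 0 in the control library, at least 3.61-fold higher on the same floor, with a mean under 1 RPM; its exact interval started at 2.425.

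Of 4 E2s tied to NEDD8, to ISG15 or to the E1 enzyme Uba6, 3 had a ratio below 1, and for 1 of them, Ube2z, the whole interval lay below 1; over all genes 4843 of 10365 had a log2 ratio below 0 and 28.1% an interval below 1. The E2s for NEDD8, which switches on cullin ligases, stood on either side of 1: Ube2m had 140 RPM in anti-miR and 121 RPM in control cells, with a ratio of 1.16 (1.09 to 1.23), and Ube2f had 44.5 RPM in anti-miR and 47.8 RPM in control cells, a ratio of 0.930 (0.837 to 1.03). Ube2l6, the E2 for ISG15, had 8.37 RPM in anti-miR and 10.04 RPM in control cells, a ratio of 0.833 (0.654 to 1.06). Ube2z, which Uba6 loads, had 145 RPM in anti-miR and 166 RPM in control cells, a ratio of 0.873 (0.824 to 0.924).

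The remaining Ube2 members include some of the most abundant. Ube2h, the E2 of the CTLH ligase complex, had 64.7 RPKM in the anti-miR and 65.6 RPKM in the control library, a ratio of 0.988 (0.946 to 1.03). Its row overlaps the gene N5 on the same strand, which had 8 reads in the anti-miR and 0 in the control library. Ube2l3, which works with parkin and with the linear chain ligase, had 65.7 RPKM in anti-miR and 61.8 RPKM in control cells, a ratio of 1.06 (1.01 to 1.12), and Ube2q1 had 52.02 RPKM in anti-miR and 55.8 RPKM in control cells, a ratio of 0.933 (0.868 to 1.003). Ube2q2l (chromosome X, 21893651 to 21895196) had 300 reads in the anti-miR and 208 in the control library, or 20.2 RPM in anti-miR and 13.0 RPM in control cells. Its ratio of 1.56 (1.30 to 1.87) was the nearest inside 1.5-fold on the higher side, and the nearest outside was Usp31 at 1.46 (1.16 to 1.84). The row of Ube2q2l leaves only 3 bases of its genomic span outside the transcript, so it has no intron of note. Whether reads of a like gene were counted in this row was not tested.

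The order of Ube2 levels per length was much the same in both libraries. Of the 5 highest Ube2 members in each library 4 were shared, Ube2d3, Ube2d2, Ube2m and Ube2l3. Ube2s was the remaining one in the anti-miR library, at rank 3 with 72.0 RPKM, against rank 9 with 53.97 RPKM in the control, where Ube2h completed the 5. Neighbours between ranks 3 and 12 lay within 47.6 to 72.0 RPKM in the anti-miR library.

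**Figure D3:**
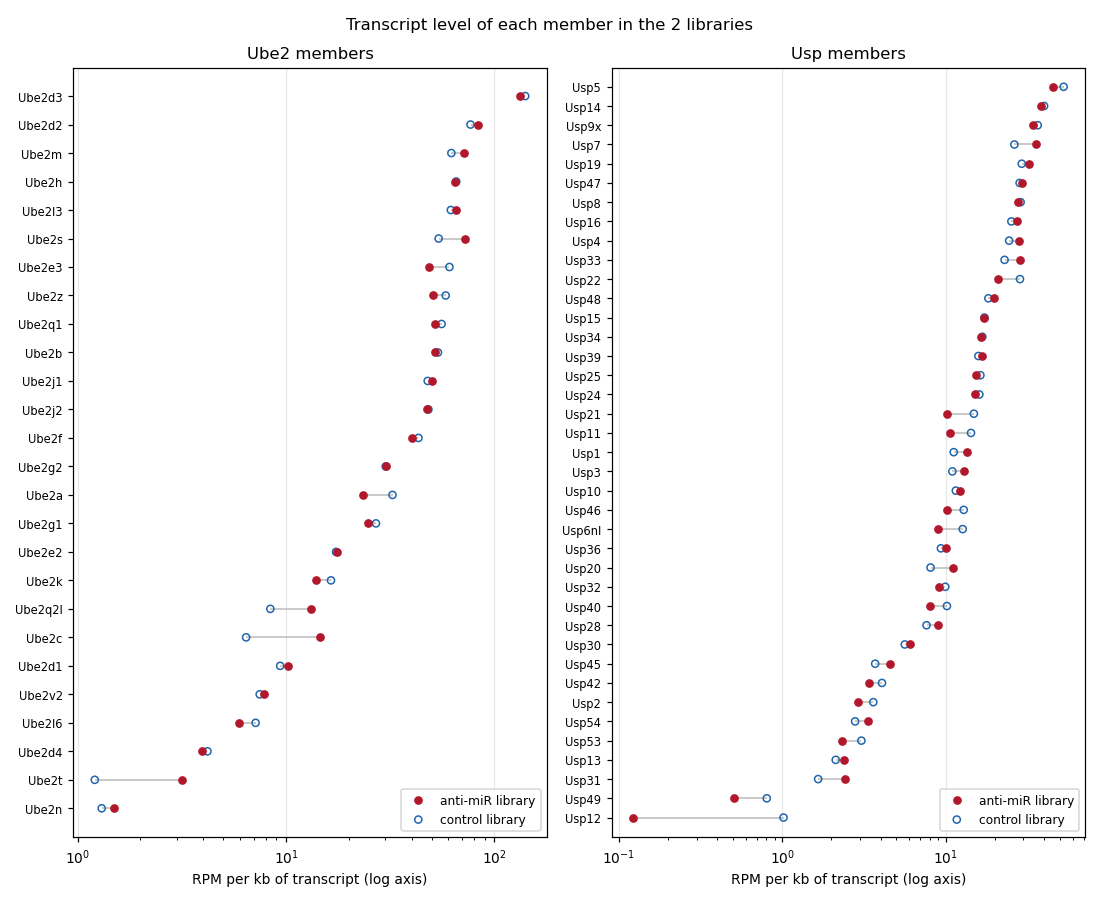
Level of each member in RPM per 1000 bases of transcript, on a log axis, in the anti-miR (filled red) and control (open blue) library, for Ube2 (left) and Usp members (right) with reads in both, except 1 that is not drawn. Ube2c, Ube2t and Usp12 show the widest gaps, and Ube2d3 and Usp5 head their families.

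Usp transcripts were longer and, per length, lower than those of the E2s. Over all 44 Usp members the median length was 4058 bases, against 1593 over all 29 Ube2 members. Among the 38 Usp members above 1 RPM the median level was 12.6 RPKM in the anti-miR and 13.6 RPKM in the control library. The 27 Ube2 members above 1 RPM had medians of 30.03 RPKM in the anti-miR and 32.4 RPKM in the control library. Of the 5 highest Usp members in each library 4 were shared, Usp5, Usp14, Usp9x and Usp19, with Usp7 the other one in the anti-miR and Usp8 in the control library.

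Proteases that recycle ubiquitin led the family. Usp5 (chromosome 4, 160937706 to 160952769), which takes apart free chains, had 45.3 RPKM in the anti-miR and 52.9 RPKM in the control library, a ratio of 0.856 (0.809 to 0.907). Usp14, which trims chains at the proteasome, had 38.5 RPKM in anti-miR and 40.2 RPKM in control cells, a ratio of 0.959 (0.886 to 1.04). Usp13, the paralog of Usp5, was far lower at 2.39 RPKM in anti-miR and 2.13 RPKM in control cells, a ratio of 1.13 (0.908 to 1.40).

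Among proteases of chromatin, DNA repair and the cell cycle, Usp7 lay outside the range of genes of its level. Usp7 (chromosome 10, 6917612 to 6963452), which stabilises Mdm2 and p53, had 118 RPM in the anti-miR and 86.6 RPM in the control library. Its ratio was 1.36 (1.27 to 1.46), short of 1.5-fold, and its log2 ratio of 0.44 lay above the like-level range of −0.47 to 0.40. It was the 1 member of 65 outside its range, where 5.27% of all genes were. Its partner gene Gmps, of GMP synthetase, had 71.3 RPM in anti-miR and 51.3 RPM in control cells, with a ratio of 1.39 (1.27 to 1.53), and Dnmt1, a methyltransferase that Usp7 binds, had 80.3 RPM in anti-miR and 100.2 RPM in control cells, a ratio of 0.802 (0.743 to 0.865).

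Proteases of histones stood on both sides. Usp22 (chromosome 10, 47303727 to 47327738), of the SAGA complex, had 32.7 RPM in the anti-miR and 44.7 RPM in the control library, a ratio of 0.733 (0.652 to 0.824). Usp21 had 15.7 RPM in anti-miR and 22.8 RPM in control cells, and its ratio of 0.688 (0.581 to 0.813) was the nearest outside 1.5-fold on the lower side. Usp49 (chromosome 9, 8774333 to 8832285) was the nearest inside, with 40 reads in the anti-miR and 69 in the control library, or 2.70 RPM in anti-miR and 4.30 RPM in control cells, and a ratio of 0.627 (0.414 to 0.939). Usp3 had 26.1 RPM in anti-miR and 22.1 RPM in control cells, with a ratio of 1.18 (1.02 to 1.37), and Usp16 had 78.6 RPM in anti-miR and 72.5 RPM in control cells, a ratio of 1.08 (0.998 to 1.18). The log2 ratio of Usp49, −0.65, lay inside a like-level range of −2.08 to 2.29.

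Repair proteases also went both ways. Usp1, which with Wdr48 removes ubiquitin from the Fanconi protein that Ube2t modifies, had 47.4 RPM in the anti-miR and 39.6 RPM in the control library, a ratio of 1.20 (1.08 to 1.34). Wdr48 had 57.2 RPM in anti-miR and 55.3 RPM in control cells, a ratio of 1.03 (0.939 to 1.14). Usp11 (chromosome X), a partner of Brca2, had 35.8 RPM in anti-miR and 48.3 RPM in control cells, a ratio of 0.740 (0.661 to 0.828). Usp28, which binds the damage protein 53BP1, had 37.1 RPM in anti-miR and 31.7 RPM in control cells, a ratio of 1.17 (1.04 to 1.32). Usp36, Usp42 and Usp47 had ratios of 1.07, 0.828 and 1.03. Of the 12 members of this group above 1 RPM, 7 had a log2 ratio above 0, near the 53.3% of all genes, 5 one below 0, and 1, Usp49, was past 1.5-fold.

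Of 6 proteases of membranes and organelles 4 had a ratio above 1, 3 of them with the whole interval above it, and 0 passed 1.5-fold. Over all genes 53.3% had a log2 ratio above 0 and 33.6% an interval above 1, so these counts of 6 are a description. Past 1.5-fold were 11.0% of all genes upward and 8.67% downward. At 50 RPM or more, where most of the 6 lay, these shares were 0.753% and 0.948%. Usp20 had 55.7 RPM in the anti-miR and 40.7 RPM in the control library, a ratio of 1.37 (1.23 to 1.52), and its paralog Usp33 had 102.7 RPM in anti-miR and 83.02 RPM in control cells, a ratio of 1.24 (1.15 to 1.33). Both act on the beta-adrenergic receptor. Usp19, which has a form anchored in the endoplasmic reticulum, had 139 RPM in anti-miR and 125 RPM in control cells, a ratio of 1.11 (1.05 to 1.19). Usp30, of the outer mitochondrial membrane, where it opposes parkin, had 20.2 RPM in anti-miR and 18.8 RPM in control cells, a ratio of 1.08 (0.913 to 1.27). The endosomal Usp8 had 112 RPM in anti-miR and 117 RPM in control cells, a ratio of 0.957 (0.895 to 1.02). The Golgi and endosomal Usp32 had 57.6 RPM in anti-miR and 63.4 RPM in control cells, a ratio of 0.909 (0.829 to 0.996). The 6 genes summed to 487 RPM in the anti-miR and 447 RPM in the control library, a ratio of 1.09 (1.05 to 1.13).

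Proteases of signalling pathways held the most reads of the Usp groups, 1201 RPM in the anti-miR and 1238 RPM in the control library. Usp9x (chromosome X, 21606330 to 21718026), which acts on Smad4 and other substrates, had 412 RPM in the anti-miR and 443 RPM in the control library, a ratio of 0.930 (0.899 to 0.963). Usp34, which acts in Wnt signalling, had 188 RPM in anti-miR and 191 RPM in control cells, a ratio of 0.984 (0.935 to 1.04). Usp4 and Usp15 are paralogs that act on TGF-beta receptors. Usp4 had 115 RPM in anti-miR and 99.8 RPM in control cells, a ratio of 1.15 (1.07 to 1.23), while Usp15 had 51.4 RPM in anti-miR and 52.02 RPM in control cells, a ratio of 0.987 (0.894 to 1.09). Usp10, Usp24, Usp25 and Usp48 had ratios from 0.944 to 1.08, and Usp2, with 89 reads in anti-miR and 119 in control cells, one of 0.809 (0.608 to 1.07). Of the 10 genes of this group above 1 RPM, 0 were past 1.5-fold, beside 11.0% of all genes upward and 8.67% downward. Most of the 10 had a mean of at least 50 RPM. At that level only 0.753% of all genes were past 1.5-fold upward and 0.948% downward. A log2 ratio below 0 was found in 7 of the 10, against 4843 of all 10365 genes, so these counts of 10 are a description.

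Usp12 and Usp46 are paralogs that need Wdr48 and Wdr20 to be active. Usp46 had 46.6 RPM in the anti-miR and 59.2 RPM in the control library, a ratio of 0.788 (0.713 to 0.870). Usp12 had 2 reads in the anti-miR and 18 in the control library, a ratio of 0.120 (0.0135 to 0.502), but its mean was under 1 RPM and its log2 ratio of −2.38 lay inside a like-level range of −4.11 to 4.21. Wdr20 had 18.2 RPM in anti-miR and 12.6 RPM in control cells, a ratio of 1.45 (1.20 to 1.74).

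The last Usp members are less well described. Usp39, a splicing factor without protease activity, had 32.3 RPM in the anti-miR and 30.8 RPM in the control library. Usp53 and Usp54 had ratios of 0.763 (0.636 to 0.913) and 1.20 (1.007 to 1.42). These intervals, for counting error only, did not overlap, and both log2 ratios lay inside the range of genes of like level. Usp31, Usp40 and Usp45 had 12.1, 42.1 and 14.4 RPM in the anti-miR and 8.30, 53.1 and 11.7 RPM in the control library, with ratios of 1.46, 0.793 and 1.24. Usp6nl, the Rab GTPase-activating protein, had 46.8 RPM in anti-miR and 66.6 RPM in control cells, a ratio of 0.703 (0.638 to 0.774). Usp26, Usp29, Usp43, Usp44 and Usp51 had 0 reads in both libraries, which allows up to 0.203 RPM in the anti-miR and 0.187 RPM in the control library. The accession listed as Usp43 belongs to Cfap52 in the newer RefSeq table, so that row may not report Usp43.

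**Figure D4:**
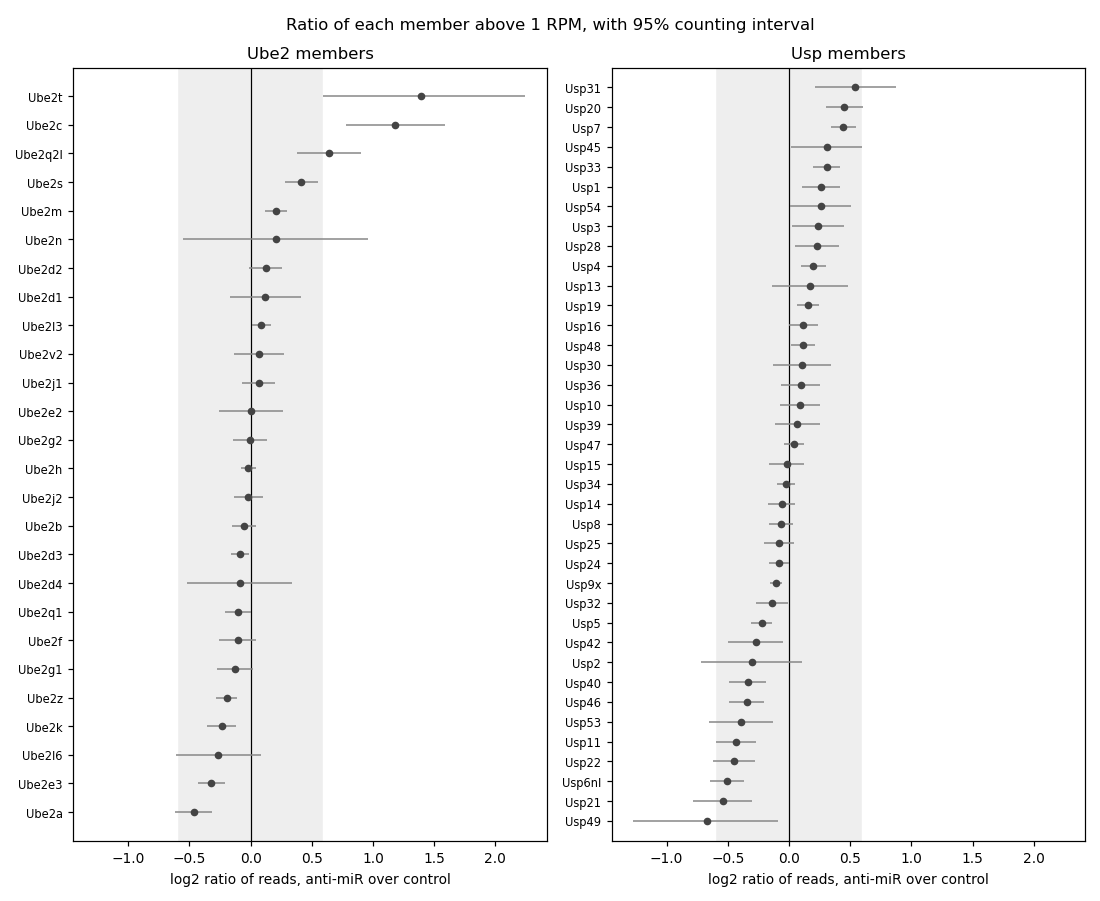
Log2 ratio of reads, anti-miR over control, for 26 Ube2 (left) and 38 Usp members (right) of at least 1 RPM, with exact 95% intervals for counting error; the grey band spans 1.5-fold either way. Ube2t, Ube2c and Ube2q2l lie above the band, and Usp49 below it.

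More of the Ube2 members than of all genes lay near 1:1, with levels not matched. Of the 27 above 1 RPM, 19 had a log2 ratio within 0.25 of 0, 70.4%, as did 21 of 38 Usp members, 55.3%, and 51.5% of all genes. At 50 RPM or more stood 15 of the 27 Ube2 members, against 3585 of 10365 genes, and spread depended on level. From 10 RPM upward the share within 0.25 of 0 was 66.7% of 57 members of both families and 60.5% of 7935 genes.

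Other genes of the ubiquitin system were also mostly within 1.5-fold, but their sum lay on the other side of 1. Of 61 listed genes 52 were in the table and 50 above 1 RPM, and the other 2, Rps27a and Uchl3, had 0 reads in both libraries. Of the 50, 2 were past 1.5-fold upward and 2 downward, with the backgrounds of 11.0% and 8.67% given above. Levels were not matched: the 50 had medians of 52.0 RPM in anti-miR and 44.5 RPM in control cells. All genes above 1 RPM had medians of 29.7 and 29.1 RPM. The median log2 ratio of the 50 was 0.05. The 52 genes summed to 3926 RPM in the anti-miR and 3729 RPM in the control library, a ratio of 1.05 (1.041 to 1.065). Intervals lay above 1 for 19 of the 50 and below 1 for 9, beside 33.6% and 28.1% of all genes. The higher ones were Atg10, an E2 of autophagy, with 6.41 RPM in the anti-miR and 2.43 RPM in the control library, a ratio of 2.64 (1.798 to 3.93), and Senp8, a NEDD8 protease, with 5.13 RPM in anti-miR and 3.24 RPM in control cells, a ratio of 1.58 (1.10 to 2.30). The lower ones were deubiquitinases of other families. Yod1 had 2.63 RPM in anti-miR and 5.68 RPM in control cells, with a ratio of 0.464 (0.310 to 0.682), and Atxn3, of ataxin-3, had 11.5 RPM in anti-miR and 20.6 RPM in control cells, a ratio of 0.556 (0.459 to 0.671). Atg10, Senp8 and Yod1 lay inside their like-level ranges, at 1 to 10 RPM, where 28.9% of all genes were past 1.5-fold upward and 25.2% downward. The log2 ratio of Atxn3, −0.84, lay below its like-level range of −0.80 to 0.99, and 5.27% of all genes lay outside theirs.

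The most abundant gene per length of each group in that list was within 1.5-fold. Ubb, a polyubiquitin gene, had 747 RPM in the anti-miR and 697 RPM in the control library, a ratio of 1.07 (1.04 to 1.10). Uba1, the main ubiquitin E1, had 315.5 RPM in anti-miR and 282 RPM in control cells, a ratio of 1.12 (1.07 to 1.17). Ufc1, the E2 for UFM1, had 62.7 RPM in anti-miR and 73.3 RPM in control cells, with a ratio of 0.855 (0.784 to 0.932), and Tsg101, an inactive E2 relative of endosomal sorting, had 89.0 RPM in anti-miR and 113 RPM in control cells, a ratio of 0.788 (0.733 to 0.846). Eif3f had 202.5 RPM in anti-miR and 186 RPM in control cells, with a ratio of 1.09 (1.03 to 1.15), and Senp3, a SUMO protease, 95.8 RPM in anti-miR and 93.2 RPM in control cells, a ratio of 1.03 (0.954 to 1.11).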

How the data were processed

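The deposited values are a read signal per gene, scaled by the authors: the analyzeRepeats program of HOMER was run on rn4 RefSeq transcripts with exon counting, the opposite strand, no adjustment of totals and 1 transcript per gene, per the file headers. Yet both columns sum to the same total to within rounding, so a scaling step followed, of which the sources say nothing. Per the submitters' processing notes, the tools were HOMER, CASAVA 1.8.2 and STAR 2.2.0c, with no roles stated. Whole reads were recovered, 1 read being worth 1.04 in the anti-miR and 0.962 in the control column; 100% of values up to 400 reads were whole within 0.005. Depth was 14815846 and 16031780 reads, without molecular identifiers, so PCR copies cannot be told from separate molecules. The table has 16847 rows and 16846 symbols, and the highest row of a symbol was kept.

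RPM is the signal per 1000000 of its column total, and RPKM divides it by the deposited transcript length. Log2 ratios used RPM + 0.1, which understates low genes; ratios used reads. Intervals were exact Clopper-Pearson, and like-level ranges the central 95% over the 500 genes nearest in mean RPM. Interval code and read recovery were tested on simulated data. As an alternative chosen after seeing the data, reads were compared by an exact binomial test with Benjamini-Hochberg adjustment at 0.05, which called 6018 of 10365 genes, 33 of them members; it compares the libraries, not the conditions.

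Members were named if past 1.5-fold, highest or lowest in ratio or highest in RPKM of a role group, or at 0; other names were chosen after their values were seen. The values of 1 member are counted in totals but not reported here. The members and lists were chosen with earlier results of these data known. Of 73 member accessions 66 were in the RefSeq table, build GRCr8, and 64 had the same symbol. Python 3.11.15, SciPy 1.17.1 and edgeR 4.0.16 (TMM scaling) were used. Alternatives were scaling by TMM or median of ratios, a pseudocount of 1 RPM, no filter or 10 RPM, and a 2-fold limit.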

Additional observations from a re-analysis of the deposited data

How the results depend on the processing

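Under TMM and median of ratios scaling, and with the binomial test added, the counts of members past 1.5-fold stayed at 3 higher and 2 lower. Scaling moved the ratio of summed levels to 0.965 for Ube2 under both and to 0.974 and 0.975 for Usp members, and turned the Usp median log2 ratio to −0.01. Without a filter 5 members were higher, all Ube2, and 2 Usp members were lower. The members added were Ube2v1, Ube2ql1 and Usp12, each with a mean under 1 RPM, where genes differed widely. The share of all genes without a filter was not counted. With a filter of 10 RPM 1 member was higher, a Ube2 gene, and 0 were lower in either family, because fewer genes remain. With a pseudocount of 1 RPM, or a limit of 2-fold, 0 members were lower in either family. For single members above 1 RPM, all 195 values under other scalings and the other pseudocount stayed inside the counting interval of the main ratio; Ube2e2, at a log2 ratio of 0.01, went to −0.02 under both scalings. No paired analysis was possible because each group has 1 library, and for the same reason no replicate could be left out. Below about 10 RPM, counting error and the spread of all genes limit what a ratio of 1.5 can show.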

Other observations

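The E1 for SUMO has the subunits Sae1 and Uba2. Sae1 had 84.9 RPM in anti-miR and 88.8 RPM in control cells, a ratio of 0.957 (0.886 to 1.03), and Uba2 had 57.6 RPM in anti-miR and 47.8 RPM in control cells, a ratio of 1.20 (1.09 to 1.33). Of 5 Senp genes measured, proteases of SUMO or NEDD8, Senp7 was lowest, with 25.3 RPM in anti-miR and 30.9 RPM in control cells and a ratio of 0.818 (0.714 to 0.937). In the NEDD8 pathway the E1 subunit Uba3 had 69.5 RPM in anti-miR and 57.6 RPM in control cells, with a ratio of 1.21 (1.10 to 1.32), and its partner Nae1 12.9 RPM in anti-miR and 15.0 RPM in control cells, a ratio of 0.858 (0.706 to 1.04). Uba6, the E1 that loads Ube2z, had 47.2 RPM in anti-miR and 31.8 RPM in control cells, a ratio of 1.49 (1.33 to 1.67), next to 0.873 for Ube2z.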
